A study of Canis lupus familiaris with 62 samples.

Results

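Meningiomas of 3 dogs that carried the treatment label anti-epileptic and nothing else were compared with those of 27 dogs labelled as untreated. Members were taken by that label alone, and they make up 3 and 27 of the 62 canine tumours whose RNA was sequenced. The 6 dogs that had a steroid together with an anti-epileptic served as a further point of comparison. All tissue of the series was archived in paraffin as surgical biopsies or post-mortem specimens, with 1 library per tumour. Each library holds counts of reads over 30951 genes.

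The anti-epileptic dogs were a female Weimaraner (replicate 1), a male Boxer (replicate 2) and a female Dachshund (replicate 3), all neutered. Their libraries held 4108949, 2794447 and 5189814 counts. The steroid and anti-epileptic dogs were 4 females and 2 males, all neutered, with 2889519 to 12063982 counts. Among the untreated dogs were 14 females and 13 males of 17 breeds, 24 of them neutered and 3 intact, with 1967061 to 8354260 counts and a median of 3850875. Untreated dogs of the treated breeds were few, at 1 Weimaraner, 4 Boxers and 1 Dachshund. The labels name no drug, dose, duration or seizure history, and give no order in time between treatment and collection of the tissue. They also carry a survival number without a unit. It was 6, 7 and 82 in the anti-epileptic dogs, 3 to 191 in the steroid and anti-epileptic dogs, and 0 to 4 in the untreated dogs, where 16 of 27 had 0. Survival number and treatment thus did not overlap between the anti-epileptic and the untreated dogs and cannot be told apart as sources of a difference. The name of every sample in these groups opens with the letter N and a number whose meaning is not given. This sample number was 13, 14 and 18 in the anti-epileptic dogs. It was 12 to 20 in the steroid and anti-epileptic dogs and 11 to 18 in the untreated dogs.

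Meningiomas grow from the membranes that cover the brain, and seizures are a common sign of such tumours in dogs. Anti-epileptic drugs act on ion channels, transmitter receptors or transmitter release in neurons and are given against the seizures, not against the tumour. Some of the older ones, such as phenobarbital, are also known to raise drug-metabolising enzymes in the liver. The comparison asks whether meningiomas of dogs on such a drug alone differ in gene expression from those of dogs given nothing. The files pair no identifier with a gene name, so the genes below are named by identifier and position on CanFam3.1, with no role given, and neither the tissue's defining markers nor those of other cell types could be looked up. In bulk tissue, fewer cells of a type and less RNA per cell cannot be told apart.

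The anti-epileptic libraries lay within the untreated range on every one of 8 library measures but the share of mitochondrial counts. Genes of the mitochondrial chromosome took 25.5%, 5.66% and 13.5% of the counts in the anti-epileptic Weimaraner, Boxer and Dachshund, against 6.29% to 46.5% with a median of 12.8% in untreated libraries. The Weimaraner was thus exceeded by 1 untreated library and the Boxer lay below all 27. Scores on principal component 1 (27.7% of the variance, 11963 genes) were 125, -12.9 and 8.97 in the anti-epileptic dogs and -59.9 to 128 in the untreated dogs. Only 1 untreated tumour scored above the anti-epileptic Weimaraner. Over 8 library measures 0 (0%) differed in mean between the groups at an adjusted p under 0.05 (2-sided exact permutation test, smallest raw p 0.45, adjusted p 0.912 for each; the smallest p that 3 against 27 dogs allow is 0.000246).

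**Figure D1:**
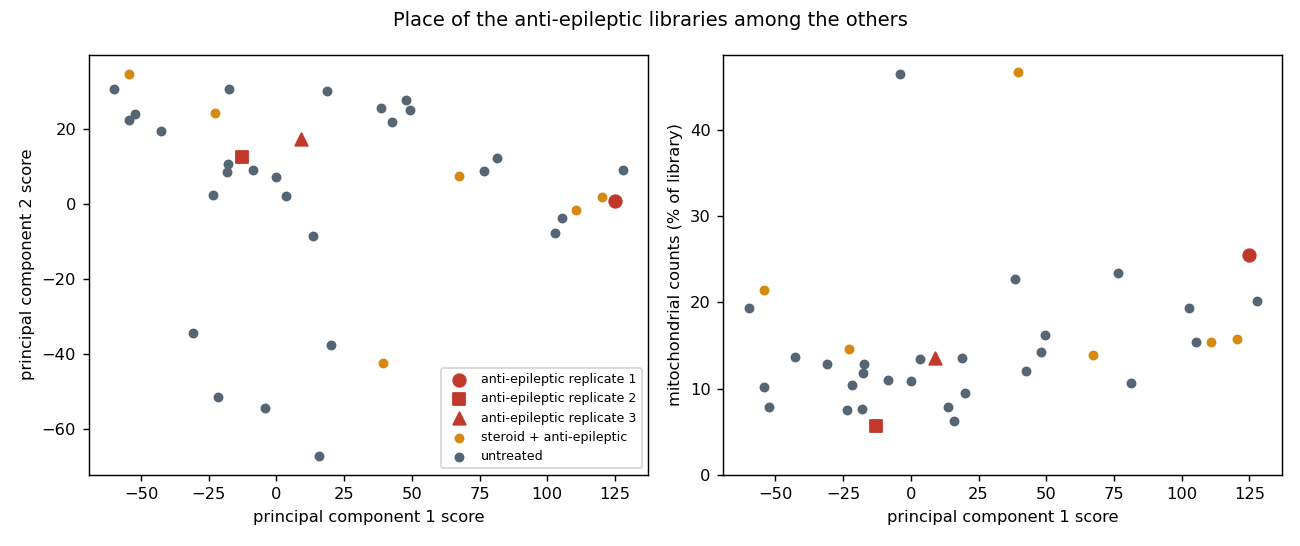
Each point is 1 tumour, with the score on principal component 1 on the horizontal axis of both panels, the score on component 2 on the left and the percent of mitochondrial counts on the right. The anti-epileptic Weimaraner (circle, score 125, 25.5% mitochondrial) stands at the right edge, and the Boxer (square) and the Dachshund (triangle) stand within the untreated cloud on component 1.

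Likeness among the 3 anti-epileptic tumours lay within the span seen among untreated tumours. Across 11963 genes, Pearson's r of log2 CPM (CPM, counts scaled to a common library size) was 0.824 between Boxer and Dachshund, 0.718 between Weimaraner and Dachshund and 0.623 between Weimaraner and Boxer. Pairs of untreated tumours had a median r of 0.774, ranging from 0.504 to 0.91. With the untreated tumours, the median r was 0.652 for the Weimaraner, 0.782 for the Boxer and 0.838 for the Dachshund, against medians of 0.603 to 0.842 for each untreated tumour with the others. These r values describe genes of the same libraries and are not tests.

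Gene by gene, the tumours of the anti-epileptic dogs differed from untreated tumours in 1 of 18370 genes tested (0.00544%; 1 higher and 0 lower, edgeR quasi-likelihood test, adjusted p under 0.05). Without adjustment 839 genes (4.57%) had an edgeR p under 0.05, 354 of them higher (1.93%) and 485 lower (2.64%). DESeq2 called 29 genes (0.158%), 1 higher (0.00544%) and 28 lower (0.152%), and limma voom called 0 (0%). Their unadjusted p was under 0.05 in 909 (4.95%, DESeq2) and 850 genes (4.63%, limma voom). Of the 28 lower genes by DESeq2, 25 had no count in any of the 3 anti-epileptic dogs, and 3 were counted in all of them. The fold changes were centred close to 0, with a median log2 fold change of -0.05 and quartiles of -0.48 and 0.32 over the 18370 genes.

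With 3 dogs in the smaller group, the test could bound the difference tightly for part of the genes. The median standard error of a log2 fold change was 0.65 over all genes, 0.49 for the 13794 genes whose log2 CPM averaged 1 or more and 0.35 for the 7722 that averaged 4 or more. These standard errors, and the 95% intervals built on them, were derived from the F test and are approximate. A 95% interval that stayed within 2-fold in either direction was found for 24% of all genes, 31.8% of those at 1 or more and 53.3% of those at 4 or more. Intervals within 4-fold held 54.9%, 72.8% and 91.2%. For the remaining genes the interval reached past these limits, so that a difference of that size was not excluded.

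**Figure D2:**
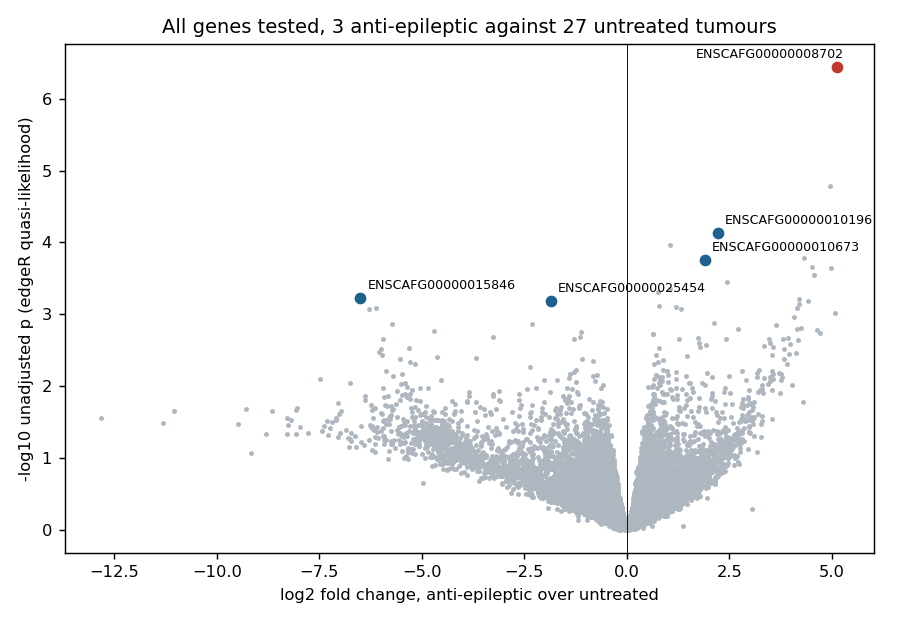
Every point is 1 of the 18370 genes, with its log2 fold change of anti-epileptic over untreated tumours on the horizontal axis and -log10 of its unadjusted edgeR p on the vertical axis. The 1 called gene (red) has a log2 fold change of 5.13, and the 4 genes named by rule (blue) were not called by edgeR.

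The called gene rested on 1 tumour. ENSCAFG00000008702, on the minus strand of chromosome 29 from 31858636 to 31868158 with 7 exon blocks of 1081 bases, had 0 counts in the anti-epileptic Weimaraner, 14 in the Boxer and 0 in the Dachshund. Among the untreated tumours 25 of 27 had 0 counts and the highest had 8. The groups therefore overlapped, and the gene was counted in 5 of all 62 libraries. Its log2 fold change was 5.13 (SE 0.88, edgeR adjusted p 0.00664), a fitted value that depends on the prior count, and without the Boxer it turned to -0.85 (edgeR adjusted p 0.994). The gene is named because it was the only call, after its values were seen, since its level was under the minimum for naming.

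Because no gene called by edgeR reached that minimum, the 2 genes per direction with the smallest edgeR p were described instead, among those averaging 1 log2 CPM or more with all 3 anti-epileptic tumours on the same side of the untreated median. By edgeR 0 of the 4 were called, and DESeq2 called 2 of them, ENSCAFG00000010196 and ENSCAFG00000025454. ENSCAFG00000010196 lies on the minus strand of chromosome 21 from 47924998 to 47948048, has 7 exon blocks of 1307 bases and overlaps no other gene. Its log2 CPM was 4.30, 5.00 and 2.82 in the anti-epileptic Weimaraner, Boxer and Dachshund (70, 100 and 34 counts), against -0.02 to 3.99 with a median of 2.06 in untreated tumours. The Weimaraner and the Boxer lay above all 27 untreated tumours, and the Dachshund above 21 of them, so that the groups overlapped. The mean was 4.04 ± 1.11 (SD, n = 3) in anti-epileptic and 2.02 ± 0.97 (SD, n = 27) in untreated tumours. The fitted log2 difference was 2.21 (SE 0.52, 95% interval 1.18 to 3.25), with an edgeR adjusted p of 0.455, and DESeq2 gave an adjusted p of 0.0408. Without the Boxer the difference was 1.38 (edgeR adjusted p 0.978), and among sample numbers 17 to 22, where the Dachshund is the only anti-epileptic dog, it was 0.35. Untreated dogs of the same breeds had 0.99 (Weimaraner), 0.77 to 3.99 (4 Boxers) and 1.90 (Dachshund), each below the anti-epileptic dog of that breed. Genes were named for having all 3 anti-epileptic tumours on the same side of the untreated median, so this order was likely from the start.

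ENSCAFG00000010673 lies on the minus strand of chromosome 37 from 5856513 to 6213820, with 29 exon blocks of 5785 bases. Another gene lies within its span on the other strand, and their exons do not overlap. In the anti-epileptic Weimaraner, Boxer and Dachshund its log2 CPM was 7.07, 9.15 and 6.53 (484, 1803 and 470 counts), against 3.00 to 7.39 with a median of 5.98 in untreated tumours. Only the Boxer stood above all untreated tumours, and the lowest of the 3 stood above 20 of 27. The log2 difference was 1.91 (SE 0.47, 95% interval 0.96 to 2.86, edgeR adjusted p 0.523), and without the Boxer it was 0.38, and 0.29 among sample numbers 17 to 22. Same-breed untreated values were 4.99 (Weimaraner), 4.99 to 6.65 (Boxers) and 5.96 (Dachshund).

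ENSCAFG00000015846, on the minus strand of chromosome 8 from 38645430 to 38702691 with 9 exon blocks of 2081 bases, had 0 counts in each of the 3 anti-epileptic tumours. Untreated tumours had 0 to 36 counts with a median of 4, and 4 of the 27 also had 0. Both reads of a pair were counted, so the limit for the whole anti-epileptic group was set at 3 fragments, or 6 counts, which is 0.503 CPM. The untreated level, pooled over 235 counts, was 2.21 CPM, which is 4.39-fold above that limit. The gene was chosen for having all 3 anti-epileptic tumours below the untreated median, so low counts in them were likely from the start. The bound rests on those same counts and is no test of a difference. It covers counting error only, with the dogs of each group pooled. It does not cover the spread between dogs, and the untreated tumours with 0 counts overlapped the anti-epileptic tumours. The edgeR adjusted p was 0.681. The fitted log2 fold change of -6.50 (SE 1.78) depends on edgeR's default prior count, not on the prior count of 2 used for log2 CPM. The untreated Weimaraner, Boxers and Dachshund had log2 CPM of 0.28, 0.77 to 3.99, and -0.47, where a count of 0 stands at -1.16.

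ENSCAFG00000025454, on the plus strand of chromosome 24 from 19258930 to 19447678 with 17 exon blocks of 4285 bases, had log2 CPM of 2.20, 1.57 and 2.56 in the anti-epileptic Weimaraner, Boxer and Dachshund (15, 8 and 28 counts). Untreated tumours ran from 1.65 to 5.02 with a median of 3.75, and 25 of 27 lay above all 3 anti-epileptic tumours. The mean was 2.11 ± 0.50 (SD, n = 3) in anti-epileptic and 3.80 ± 0.68 (SD, n = 27) in untreated tumours, a fitted log2 difference of -1.85 (SE 0.51, 95% interval -2.88 to -0.83, edgeR adjusted p 0.681, DESeq2 adjusted p 0.0476). Its span holds parts of 4 other genes, 1 of them on the same strand, with 0 overlaps between exons. Untreated dogs of the same breeds had 5.02 (Weimaraner), 3.59 to 4.21 (Boxers) and 3.87 (Dachshund), each above the anti-epileptic dog of that breed. The choice of the gene made this order likely too.

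**Figure D3:**
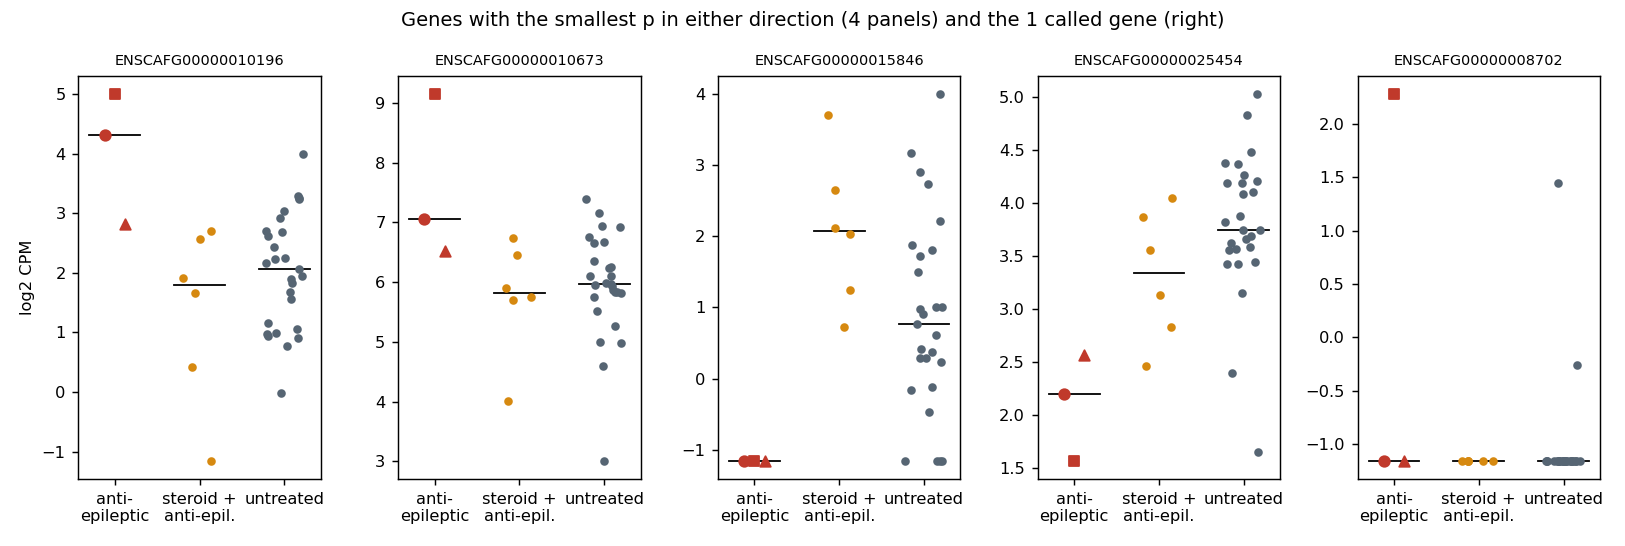
Log2 CPM of the 4 genes named by rule and of the called gene in each anti-epileptic tumour (circle Weimaraner, square Boxer, triangle Dachshund), each steroid and anti-epileptic tumour and each untreated tumour, with the group median as a line. For ENSCAFG00000025454 the 3 anti-epileptic tumours sit between 1.57 and 2.56 with 2 untreated tumours among them, and in the right panel the Boxer alone of the 3 has counts.

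Few genes separated the groups fully. All 3 anti-epileptic tumours lay above all 27 untreated tumours in 1 of 18370 genes (0.00544%) and below all of them in 2 (0.0109%). There are 4060 ways to draw 3 tumours against 27, and a given full separation is 1 of them. Counts of 1 and 2 among 18370 genes do not exceed that share, so such genes can arise by chance. These 3 genes are given by position, chosen after their values were seen. The higher one, on chromosome 7 from 62278061 to 62402375, had log2 CPM of 4.66, 4.41 and 4.54 in anti-epileptic and 2.07 to 4.36 in untreated tumours (log2 fold change 0.99, SE 0.35, edgeR adjusted p 0.982). On chromosome 8, the gene from 17390499 to 17482401 had 4.92, 4.92 and 5.02 in anti-epileptic and at least 5.38 in untreated tumours (log2 fold change -1.11, SE 0.34, edgeR adjusted p 0.845). On chromosome 23, the gene from 38032841 to 38131293 had 6.78, 6.90 and 6.92 in anti-epileptic and at least 6.97 in untreated tumours (log2 fold change -0.37, SE 0.19, edgeR adjusted p 0.982). The steroid and anti-epileptic tumours overlapped the untreated range for all 3 genes.

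Taken 1 tumour at a time, far more genes left the untreated range, and the 3 dogs differed in how many did. The Weimaraner had 1222 genes above and 681 below every untreated tumour, the Boxer 857 and 426, and the Dachshund 227 and 64. Each untreated tumour set against the other 26 had 106 to 2007 genes above (median 510) and 70 to 1652 below (median 309). All 6 anti-epileptic numbers but the 64 of the Dachshund lay within those ranges.

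The steroid and anti-epileptic dogs carry the same label word together with a steroid. Against them, the anti-epileptic dogs had 0 called genes by edgeR (0%, with 871 genes or 4.74% at an unadjusted p under 0.05), 32 by DESeq2 (0.174%; 4 or 0.0218% higher and 28 or 0.152% lower) and 1 by limma voom (0.00544%, lower). The steroid and anti-epileptic tumours, set against the same untreated tumours, had 88 genes called by edgeR (0.479%; 86 or 0.468% higher and 2 or 0.0109% lower). The 3 comparisons share samples. ENSCAFG00000010196 stood at -1.16 to 2.69 log2 CPM with a median of 1.79 in the steroid and anti-epileptic tumours, below each anti-epileptic tumour, with a log2 difference of 2.82 between anti-epileptic and steroid and anti-epileptic tumours (edgeR adjusted p 0.736). For ENSCAFG00000010673 the steroid and anti-epileptic tumours ran from 4.01 to 6.74 (median 5.82), and its difference was 2.24 (edgeR adjusted p 1). ENSCAFG00000015846 was counted in all 6 of them, at 0.73 to 3.70 log2 CPM, against 0 counts in the anti-epileptic tumours (edgeR adjusted p 0.736). ENSCAFG00000025454 stood at 2.46 to 4.04 (median 3.34), which overlaps the anti-epileptic Dachshund at 2.56. The 4 genes were chosen by their values in the same 3 anti-epileptic tumours. A distance from the steroid and anti-epileptic tumours was therefore likely from the start. By edgeR, none of the 4 genes was called between the steroid and anti-epileptic and the untreated tumours, with adjusted p between 0.531 and 0.816.

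Genes grouped by what the file itself gives had median log2 fold changes between -0.14 and 0.21, against -0.05 for all genes (quartiles -0.48 and 0.32). The 16 genes of the mitochondrial chromosome had a median log2 fold change of 0.21, with 0 called by edgeR and 0 at an unadjusted p under 0.05. The dogs differed here, with 16 of these genes above the untreated median in the Weimaraner, 0 in the Boxer and 14 in the Dachshund. The 711 genes of the X chromosome had a median of -0.10, the 1523 genes with 1 exon -0.14, and the 190 genes spanning over 500 kb 0.17. Each had 0 genes called by edgeR, where 1 of all 18370 (0.00544%) was called, so these counts say nothing particular to the groups. Long-span genes took 1.91%, 1.08% and 1.20% of the counts in the anti-epileptic Weimaraner, Boxer and Dachshund, against 0.939% to 2.00% (median 1.24%) in untreated tumours.

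Expression was also summed along chromosomes, with a score for each chromosome that averages, over its genes, how far its log2 CPM stood from the mean of all 62 libraries. The median autosome of each library was then set to 0. Of 39 scores, 0 (0%) differed between the groups at an adjusted p under 0.05, and 2 (5.13%) passed 0.05 before adjustment (2-sided exact permutation test, 4060 splits). These were also the 2 highest differences. On chromosome 13 the scores were 0.104, 0.543 and 0.0718 in the anti-epileptic Weimaraner, Boxer and Dachshund, against -0.576 to 0.281 in untreated tumours (mean 0.240 against -0.0427, exact permutation p 0.0153, adjusted p 0.596). On chromosome 15 they were 0.0971, 0.462 and 0.0482, against -0.581 to 0.0928 (mean 0.202 against -0.0124, exact permutation p 0.0399, adjusted p 0.768). Without the Boxer the difference of 0.282 on chromosome 13 was 0.131 and that of 0.215 on chromosome 15 was 0.085.

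The 2 lowest differences were small beside the spread between tumours. On chromosome 17 the scores were -0.0289, 0.147 and -0.471 in the anti-epileptic Weimaraner, Boxer and Dachshund (difference -0.0924, exact permutation adjusted p 0.982), and without the Dachshund the difference turned to 0.0842. On chromosome 23 the difference was -0.0853 (exact permutation p 0.265, adjusted p 0.982), with all 3 anti-epileptic scores inside the untreated range of -0.146 to 0.439.

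**Figure D4:**
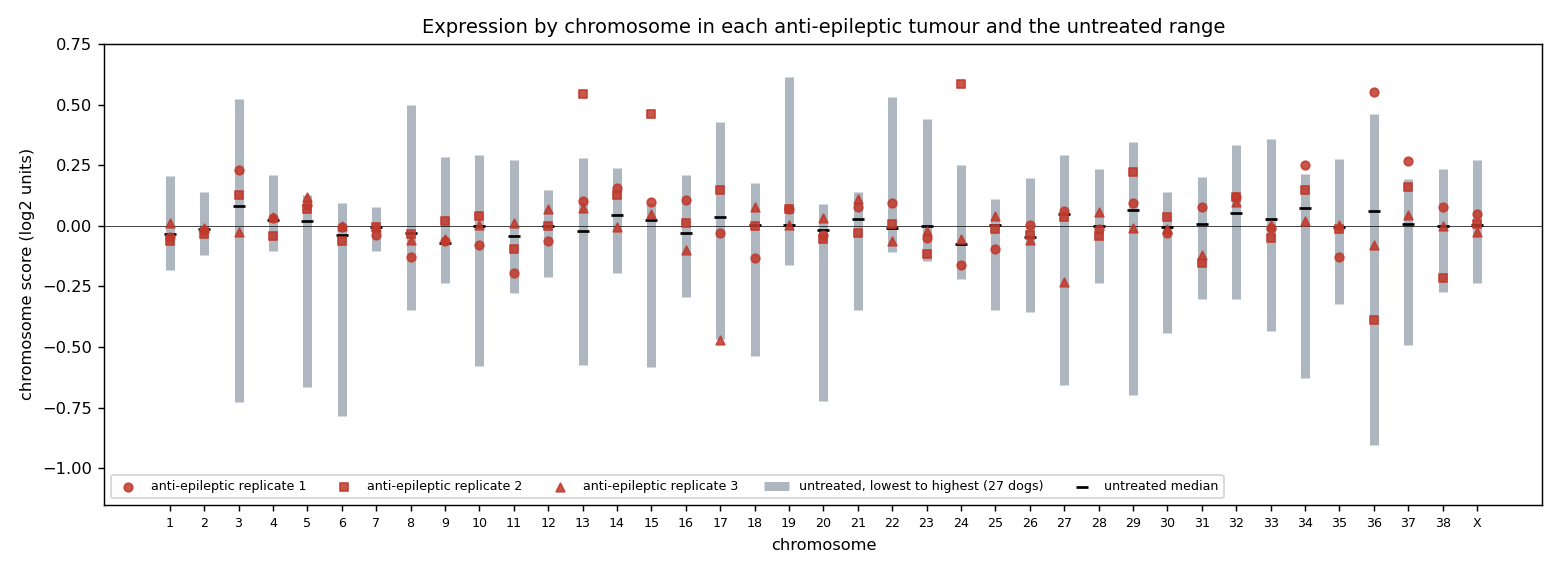
Chromosome scores in log2 units, with 1 symbol for each anti-epileptic tumour, a grey bar from the lowest to the highest of the 27 untreated tumours and a black dash at their median. The Boxer (squares) stands above the grey bars on chromosomes 13, 15 and 24, at 0.543, 0.462 and 0.585, and the Weimaraner (circles) passes the bar of chromosome 15 narrowly, at 0.0971.

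Single tumours left the untreated range on different chromosomes. The Boxer did so on chromosomes 13, 15 and 24, with 0.585 on chromosome 24 against an untreated maximum of 0.249 and a second highest of 0.0588. Untreated Boxers scored -0.0661 to 0.0568 on chromosome 13, 0.00343 to 0.0928 on chromosome 15 and -0.0927 to 0.005 on chromosome 24. The Weimaraner left it upwards on chromosomes 36 (0.550, untreated maximum 0.461), 37 (0.269 and 0.195), 34 (0.253 and 0.214) and 15 (0.0971 and 0.0928), in each case by a narrow margin. The Dachshund left it downwards on chromosome 17, at -0.471 against an untreated minimum of -0.466, and the untreated Dachshund stood at -0.399 there. Further untreated tumours stood nearly as low, at -0.43, -0.427 and -0.395, so a low chromosome 17 was not particular to this tumour. No chromosome was outside the untreated range in all 3 dogs. In number, 4, 3 and 1 scores lay outside in the Weimaraner, Boxer and Dachshund, against 0 to 18 (median 1) for each untreated tumour set against the other 26. Autosomes with a score beyond 0.3 in either direction numbered 1, 4 and 1 in the same anti-epileptic dogs, 0 to 7 (median 1) in steroid and anti-epileptic dogs and 0 to 17 (median 1) in untreated dogs.

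The deviations of the Boxer ran along whole chromosomes. Bins were made only for chromosomes where the score of an anti-epileptic tumour lay outside the untreated range, from the same genes. They and the shares below show how a deviation was spread along a chromosome and are no further test of it. When the genes of a chromosome were cut in position order into 10 bins, all 10 bins of chromosome 24 lay above every untreated tumour, with bin means of 0.458 to 0.789. On chromosome 15, 6 of 10 bins and on chromosome 13, 5 of 10 bins lay above every untreated tumour, and all 10 lay above the untreated median on each. In the Boxer, 241 of 318 genes on chromosome 24 (75.8%), 158 of 212 on chromosome 13 (74.5%) and 209 of 297 on chromosome 15 (70.4%) exceeded the untreated median, against 49.2% of 11963 genes overall. Of 463 genes tested on chromosome 24, 93 (20.1%) lay above all untreated tumours, against 4.67% of all genes in that dog. On chromosome 36 the Boxer scored -0.390, within the untreated range, with 18 of 103 genes (17.5%) above the untreated median. In the Dachshund, all 10 bins of chromosome 17 lay below the untreated median, from -0.578 to -0.355, and 1 lay below all untreated tumours. The Dachshund had its largest share of genes above all untreated tumours on chromosome 5, with 56 of 948 (5.91%), against 1.24% of all genes in that dog. DNA copy number was not analysed here.

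**Figure D5:**
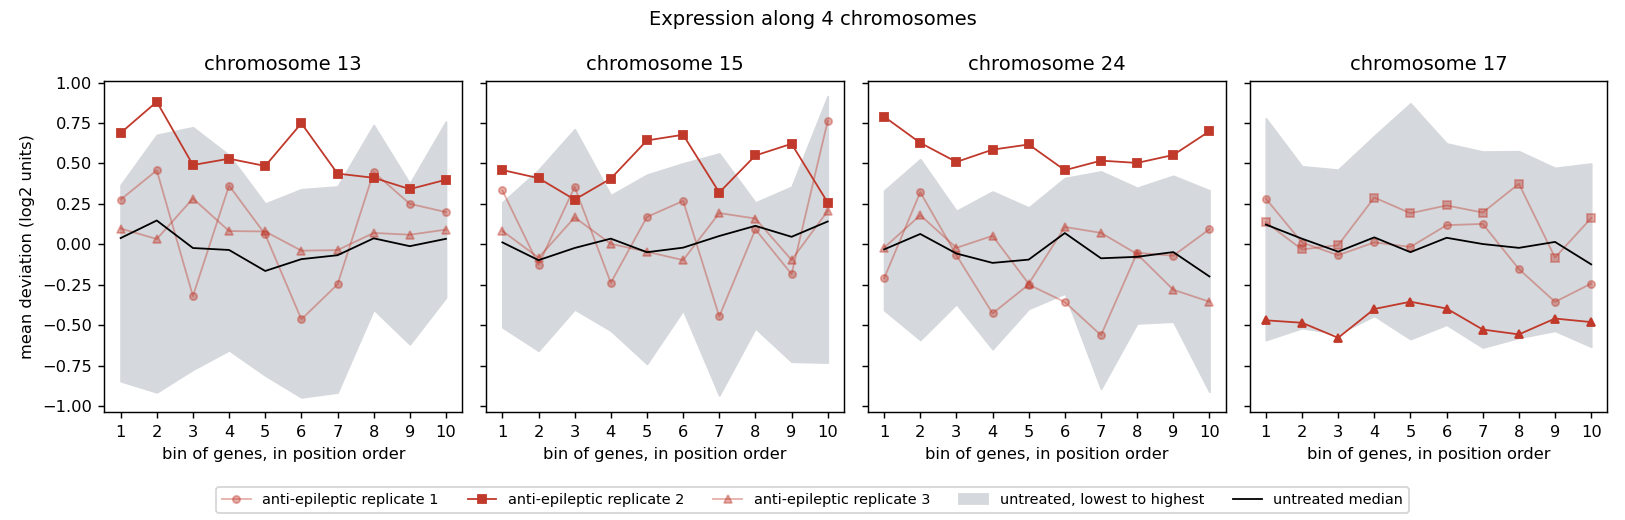
Mean deviation in log2 units in 10 bins of genes, in position order, along chromosomes 13, 15, 24 and 17, with the 3 anti-epileptic tumours as lines, the untreated range in grey and the untreated median in black. The Boxer (squares) runs above the grey band in all 10 bins of chromosome 24, and the Dachshund (triangles) runs near the lower edge of the band along chromosome 17.

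The higher genes of the group comparison were counted by chromosome with and without the Boxer. Chromosome 24 held 33 genes higher in anti-epileptic tumours at an unadjusted edgeR p under 0.05 among 463 tested (7.13%), against 1.93% over all genes. Without the Boxer there were 7 (1.51%), against 1.86% over all genes in that fit. On chromosome 15, 18 of 469 genes (3.84%) passed, and 6 (1.28%) without the Boxer, and on chromosome 13, 12 of 357 (3.36%) and 6 (1.68%). These chromosomes were taken because the Boxer scored high on them, so a fall without that dog was likely from the start. Other chromosomes went the other way. Chromosome 5 had 23 of 948 genes (2.43%) with the Boxer and 35 (3.69%) without it, the highest share of any chromosome in that fit. ENSCAFG00000025454, which lies on chromosome 24, stood lowest in the Boxer of the 3 anti-epileptic dogs, at 1.57 log2 CPM, where the chromosome as a whole stood high.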

How the data were processed

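Total RNA of canine meningiomas was extracted from paraffin sections and sequenced as Illumina read pairs, per the labels' protocols. Raw counts for every gene were deposited. The authors counted, per the file headers, primary alignments over exons of Ensembl release 100 on CanFam3.1 with featureCounts 2.0.4, with no strand option and each read of a pair counted by itself; between libraries 61.0% to 88.9% of nonzero values were even, so that a count of 2 mostly stands for 1 fragment. STAR and DESeq2 were also used, per the submitters' processing notes. Genes on opposite strands that overlap, and near-identical copies, cannot be told apart. The name table at hand matched 0 identifiers, so the planned gene lists and cell type markers were not analysed, and no sequences are shown. Of the file's columns, 0 belonged to no sample.

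Groups came from the treatment label, and replicates were numbered in accession order. No library appears 2 times: among 1891 pairs the smallest chi-square, divided by genes, was 11.8. Each library is labelled as a tumour of its own and counted as 1 replicate. Counts of all 62 libraries entered 1 edgeR 4.0.16 quasi-likelihood fit (R 4.3.3) with 7 treatment groups, sex and neuter status, after filterByExpr (smallest group set to 3; 18370 genes left) and TMM scaling (factors 0.556 to 1.24). The common dispersion was 0.63. P-values were adjusted by Benjamini-Hochberg over all genes. Log2 CPM used a prior count of 2, which puts a count of 0 at -1.16. Further fits were made with limma 3.58.1 (voom, quality weights) and DESeq2 1.42.0. Chromosome scores (11892 genes averaging 2 log2 CPM or more) and library measures were compared with exact permutation tests in Python 3.11.15 with scipy 1.17.1, adjusted over 39 scores and 8 measures. The fits and tests were tested on simulated data. Genes to be named passed an adjusted p of 0.05 and averaged 1 log2 CPM or more, with group medians at least 0.5 apart and all 3 anti-epileptic libraries on that side of the untreated median; empty places, 2 per direction, went to the smallest p. Members, lists and tests were chosen with earlier results of these data known.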

Additional observations from a re-analysis of the deposited data

Results flagged for a closer look

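In the steroid and anti-epileptic group, 1 of 6 tumours stood far from the others on chromosome 23. Replicate 4 had a score of -0.824, and the next lowest was -0.134. The gap made up 0.868 of the group's range, above the 95% critical value of 0.625 for 6 samples. This library also had 46.7% mitochondrial counts and the highest total of the group, 12063982; their part in the score was not tested. Of the values of this group examined in the same way, 8 in all, 1 stood out. Chance alone sets apart a tumour in about 1 in 20 cases for each value examined. With 8 values, 1 or more such flags are likelier than that.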

How the results depend on the processing

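The count of 1 called gene between anti-epileptic and untreated tumours was kept in 10 alternatives, in 3 of them by another gene, and moved in 12. It was 27 with no filter on low counts (all higher; 17 counted in 1 and 10 in 2 of the 3 anti-epileptic dogs), 29 with DESeq2 and 0 with limma voom, with genes of mean log2 CPM of at least 1, without covariates, with counts divided by 2, with untreated dogs of survival number 1 or more, with the dogs' own breeds and a breed term, and with sample numbers 17 to 22. It was also 0 without the untreated library with over 40% mitochondrial counts, an alternative chosen after seeing the data. Leaving out each anti-epileptic dog in turn gave 0 to 3 calls, 0 without the Boxer and 3 without the Dachshund. Against the steroid and anti-epileptic dogs the count of 0 became 32 with DESeq2 and 1 with limma voom, and stayed 0 in the other 14. ENSCAFG00000008702 was called in 9 of 19 alternatives and ranged from -0.85 without the Boxer to 5.88 without the Dachshund. ENSCAFG00000010196 ranged from 0.35 to 2.67, ENSCAFG00000010673 from 0.29 to 2.37, ENSCAFG00000015846 from -6.92 to -3.46 and ENSCAFG00000025454 from -2.34 to -1.54 over 22 alternatives each. The chromosome 17 difference turned to 0.0197 within sample numbers 11 to 16 and to 0.0842 without the Dachshund, and was -0.225 without the Boxer. The counts of 0 called chromosome scores and 0 called library measures were unchanged in all 11 and 7 alternatives. The causes were not tested. No paired analysis was possible because the labels number no replicates across groups. The limit of these comparisons is the 3 dogs, each of another breed, and gene levels under about 1 log2 CPM rest on few fragments.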
